A study of Homo sapiens with 36 samples.

Results

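The iron uptake and storage genes are 9 genes that bring iron into a cell, store it, release it or sense it. They were taken by symbol, with no cut on their measured values, though earlier results of these data were known when they were chosen. They are TFRC, STEAP3 and SLC11A2 (uptake), FTH1, FTL and NCOA4 (storage), SLC40A1 (export), and ACO1 and IREB2 (sensing). All 9 were measured in each of 3 RNA-seq experiments, among 16431 genes for GSK-J4 on NT2/D1-A4 cells, 17035 for GSK-J4 on 2102EP-C1 cells and 16459 for knockdown in 2102EP-C1 cells. NT2/D1-A4 and 2102EP-C1 are cisplatin-resistant clones of the human embryonal carcinoma lines NT2/D1 and 2102EP, so each line was represented by 1 resistant clone. In the GSK-J4 experiments the 4 arms were untreated cells, 0.5 µM cisplatin for 6 h, 1 µM GSK-J4 for 3 days, and GSK-J4 followed by the same cisplatin dose. The untreated cells are labelled VC, and the paper describes them as an untreated vehicle control. GSK-J4 inhibits the histone H3K27 demethylases KDM6A and KDM6B, which use iron as a cofactor. In the knockdown experiment the cells carried either the empty lentiviral vector pLKO.1 or a pair of short hairpin RNAs, 1 against KDM6A and 1 against KDM6B (sh6A+6B). Each was given PBS (called untreated or without cisplatin below) or the same cisplatin dose. Every arm had 3 libraries, 36 in all, and the authors harvested RNA a day after cisplatin treatment.

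Transferrin carries ferric iron into cells through the transferrin receptor TFRC. The iron is reduced in the endosome by STEAP3 and leaves it through SLC11A2 (DMT1). Iron that is not used is stored in ferritin, a shell of heavy (FTH1) and light (FTL) chains, and NCOA4 carries ferritin to the lysosome when iron is needed. Ferroportin, the product of SLC40A1, is the iron exporter. The iron regulatory proteins ACO1 (IRP1) and IREB2 (IRP2) bind hairpins called iron-responsive elements (IREs). When iron is scarce they block translation of messages with an IRE in the 5′ UTR, such as both ferritins and SLC40A1, and protect the TFRC message through IREs in its 3′ UTR.

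The IRE is the regulatory sequence that these messages share, so the sites are shown here. A search of the GENCODE 44 transcripts (GRCh38) for the pattern CNNNNNCAGTGN, with the 5 bases after it able to pair with the 5 before the loop (G-U pairs allowed), found it in 4 of the 9 members. Capitals mark the 6-base loop, and each window of 30 bases is written 5′ to 3′ on the transcript's strand. The TFRC windows lie in its 3′ UTR, on the minus strand of chromosome 3.
TFRC, chr3:196050979-196051008: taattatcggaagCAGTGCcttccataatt
TFRC, chr3:196050575-196050604: acattatcgggagCAGTGTcttccataatg
TFRC, chr3:196050510-196050539: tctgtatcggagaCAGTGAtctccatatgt
TFRC, chr3:196050463-196050492: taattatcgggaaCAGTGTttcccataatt
The other windows lie in 5′ UTRs, FTH1 and SLC40A1 on the minus strand and FTL on the plus strand.
FTH1, chr11:61967574-61967603: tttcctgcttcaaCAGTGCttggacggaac
FTL, chr19:48965334-48965363: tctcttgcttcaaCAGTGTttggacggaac
SLC40A1, chr2:189580661-189580690: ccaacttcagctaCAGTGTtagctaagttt

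The pattern was present in 0.102% of 18589 canonical 5′ UTRs (19 of them, median length 142 bases) and in 0.632% of 19141 canonical 3′ UTRs (121, median 1075 bases), read on the transcript strand. It was annotated in 10 of 11 coding transcripts of TFRC, 7 of 8 of FTH1, the 1 of FTL and 1 of 5 of SLC40A1. The match is a description of letters, and a hairpin with a mismatch within the 5 pairs is missed. A member without a match may therefore still have an IRE. The RNA-seq read message levels, and neither binding at these sites nor translation was measured. The other members' genes lie at chr12:50979401-51028566 (SLC11A2), chr10:46005088-46030623 (NCOA4), chr9:32384603-32454769 (ACO1), chr15:78437431-78501453 (IREB2) and chr2:119223831-119265652 (STEAP3) in the same annotation.

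Levels are log2 CPM, the log2 of counts per 1000000 counted reads with a prior count of 3. Libraries held 26.8 to 49.5 M reads (M, 1000000) for NT2/D1-A4, 30.3 to 53.6 M for the GSK-J4 experiment of 2102EP-C1 and 79.4 to 100.9 M for the knockdown. The sources name biological triplicates but not separate cultures, so p-values measure the spread between these libraries. Within pLKO.1 and sh6A+6B cells without cisplatin, KDM6A differed by -1.01 ± 0.03 (SE) and KDM6B by -1.01 ± 0.05 on the log2 scale (limma adjusted p = 2.1e-18 and 1.8e-14), both lower with the hairpins. With GSK-J4 alone the KDM6B message instead rose, by 0.88 ± 0.06 in NT2/D1-A4 and 0.81 ± 0.07 in 2102EP-C1 cells (limma adjusted p = 1.2e-09 and 2.3e-10). The KDM6A difference was 0.06 in both lines (adjusted p = 0.24 and 0.17). Of 8 embryonal carcinoma markers 7 were measured in every experiment, and their mean levels in untreated cells ran from 7.72 (SALL4, NT2/D1-A4) to 11.7 (DNMT3B, 2102EP-C1). DNMT3B fell with GSK-J4 alone (log2 fold change -0.79 in NT2/D1-A4 and -0.43 in 2102EP-C1 cells), the only marker of the 7 called there. With knockdown none of the 7 was called, and the DNMT3B difference was -0.35 (adjusted p = 7.6e-16). With no fold limit, 7, 5 and 6 of the 7 passed an adjusted p of 0.05 in the 3 experiments. Of all genes 48.3%, 35.2% and 52.8% did. Of 7 testis somatic cell markers only AMH was measured, at a mean under 1 log2 CPM in the untreated arm of every experiment, and it fell in GSK-J4-treated 2102EP-C1 cells (-0.96). Of 5 fibroblast markers COL1A2 (4.17 to 5.92 log2 CPM in untreated arms) and PDGFRB (3.17 to 3.45) were measured. COL1A2 fell in GSK-J4-treated NT2/D1-A4 cells (-0.46) and PDGFRB rose with knockdown (0.61). Of 6 erythroid markers EPOR was measured in each experiment, at most at 1.66 log2 CPM in untreated arms, and fell in GSK-J4-treated NT2/D1-A4 cells (-0.39). SLC4A1 was measured in the knockdown experiment at -1.17 and fell there (-0.51). The part of these marker differences in the results below was not tested, and in bulk RNA fewer cells with a message and less message per cell cannot be told apart.

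Libraries of 2 arms stood apart from their replicates. Replicates were compared by their squared difference, as a median over genes relative to that of counting noise. For the third GSK-J4 library of 2102EP-C1 cells against the other 2 this ratio was 5.56 and 7.29, and for those against each other 1.58. In NT2/D1-A4 cells with both agents, the ratio for libraries 1 and 3 was 9.86. Without that GSK-J4 library the same 3 members were called with GSK-J4 alone, with log2 differences of 0.68 for FTH1, 0.67 for FTL and 0.79 for SLC40A1. The STEAP3 interaction given later was -0.56 without it (limma adjusted p = 0.0012). Without library 1 or 3 of both agents, 5 or 4 members were called in NT2/D1-A4 cells against untreated cells.

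With GSK-J4 alone, the storage and export genes rose in both lines: FTH1 1.53-fold and 1.54-fold, FTL 1.71-fold and 1.54-fold, and SLC40A1 2.66-fold and 1.85-fold, in NT2/D1-A4 and 2102EP-C1 cells. In NT2/D1-A4 cells TFRC also rose, 1.51-fold, and STEAP3 fell, 1.40-fold. With KDM6A and KDM6B knockdown SLC40A1 rose 1.39-fold and STEAP3 fell 1.37-fold, while FTH1 and FTL stood below their vector controls by less than the fold limit. A gene was called where it passed a 1.3-fold change and an adjusted p of 0.05 in limma. That gave 5 of the 9 members in NT2/D1-A4 cells, where 20.3% of all genes were called, 3 in 2102EP-C1 cells (10.9% of all genes) and 2 with knockdown (12.1%). The members' median log2 fold changes were 0.16, 0.05 and 0.01, beside 0.01, -0.002 and -0.005 over all genes.

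**Figure D1:**
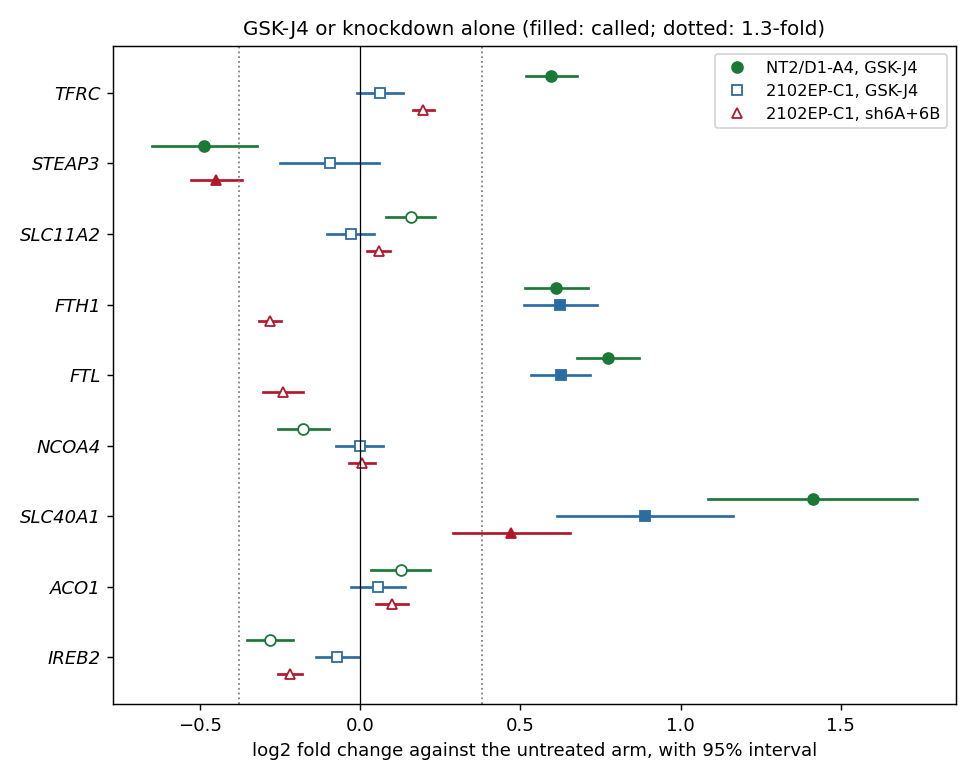
Log2 fold change of each member with GSK-J4 or knockdown alone against the untreated arm (horizontal axis) with 95% intervals, for the 3 experiments. Filled symbols mark called genes and dotted lines the 1.3-fold limit. FTH1 and FTL lie to the right of 0 in both GSK-J4 experiments and to the left with knockdown, and SLC40A1 lies to the right of 0 in all 3.

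FTH1 and FTL stood apart between the arms, with no overlap, in all 3 experiments. FTH1, the heavy chain, which oxidizes iron on entry to the shell, stood at 5.82, 5.82 and 5.89 log2 CPM in untreated NT2/D1-A4 cells and at 6.35, 6.49 and 6.52 with GSK-J4. In 2102EP-C1 cells it stood at 5.62, 5.50 and 5.63 untreated and at 6.31, 6.23 and 6.09 with GSK-J4. Every GSK-J4 library was above every untreated one in both lines. The log2 differences were 0.61 ± 0.05 and 0.62 ± 0.06 (limma adjusted p = 5.5e-09 and 1.6e-09). In the knockdown experiment FTH1 stood at 8.87, 8.90 and 8.88 with the vector and at 8.58, 8.60 and 8.62 with sh6A+6B. Every FTH1 value in that experiment was far above those of the same clone in the GSK-J4 experiment, an offset described below whose source was not tested. All 3 knockdown libraries were lower than the vector ones, with a log2 difference of -0.28 ± 0.02 (adjusted p = 1.3e-12) that did not reach the fold limit.

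FTL, the light chain of ferritin, had the same order of arms. It stood at 6.95, 6.92 and 7.02 log2 CPM in untreated NT2/D1-A4 cells and at 7.68, 7.77 and 7.75 with GSK-J4. In 2102EP-C1 cells the values were 6.97, 6.97 and 7.08 untreated and 7.69, 7.67 and 7.54 with GSK-J4. The arms did not overlap in either line, and the log2 differences were 0.77 ± 0.05 and 0.63 ± 0.05 (adjusted p = 1.6e-10 and 2.6e-11). With the vector FTL stood at 7.13, 7.07 and 7.11 and with sh6A+6B at 6.80, 6.91 and 6.86, again without overlap but lower, by a log2 difference of -0.24 ± 0.03 (adjusted p = 3.4e-07), under the fold limit. In 2102EP-C1 cells the intervals of the GSK-J4 difference (0.53 to 0.72) and of the knockdown difference (-0.30 to -0.18) had opposite signs. They come from separate controls and separately normalized tables, and the difference between them was not tested.

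Some reads at the ferritin genes could belong elsewhere. FTH1 overlaps BEST1 on the opposite strand, and the strand setting of the count is not given in the sources used here. BEST1 had 6 to 12 reads in untreated NT2/D1-A4 libraries, where FTH1 had 1759 to 2395, and 16 to 28 with GSK-J4, where FTH1 had 2576 to 4489. Its log2 differences with GSK-J4 or knockdown alone were 0.87 ± 0.35, 1.06 ± 0.25 and -0.40 ± 0.17 in the 3 experiments (limma adjusted p = 0.049, 0.0015 and 0.054). They had the sign of FTH1 in each, but that with knockdown did not pass the adjusted p limit. Ferritin genes also have processed pseudogenes with near-identical sequence. The highest of those measured in NT2/D1-A4 cells, FTH1P2, had 21 to 26 reads in untreated libraries and 44 to 70 with GSK-J4. How reads with several matches were counted is not given in the sources used here, so ferritin reads may also be missing from these counts. The part of the pseudogenes or of missing reads in the ferritin levels was not tested.

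SLC40A1, the only known cellular iron exporter, was the member with the largest fold change and the lowest level. It had 24 to 31 reads per untreated NT2/D1-A4 library (-0.16, -0.30 and -0.17 log2 CPM) and 60 to 116 with GSK-J4 (0.98, 1.27 and 1.35). In 2102EP-C1 cells it had 63 to 100 reads untreated (0.94, 0.74 and 0.97) and 92 to 135 with GSK-J4 (1.63, 1.72 and 1.97). No GSK-J4 library overlapped an untreated one, and the log2 differences were 1.41 ± 0.16 and 0.89 ± 0.13 (adjusted p = 5.2e-07 and 8.9e-06). With the vector SLC40A1 had 212 to 253 reads (1.45, 1.28 and 1.42) and with sh6A+6B 277 to 321 (1.85, 1.96 and 1.75). The knockdown libraries were all higher, by a log2 difference of 0.47 ± 0.09 (adjusted p = 9.7e-05). SLC40A1 was thus called higher in 3 of 3 experiments, the only member of which this held, and its intervals were the widest of the 9.

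**Figure D2:**
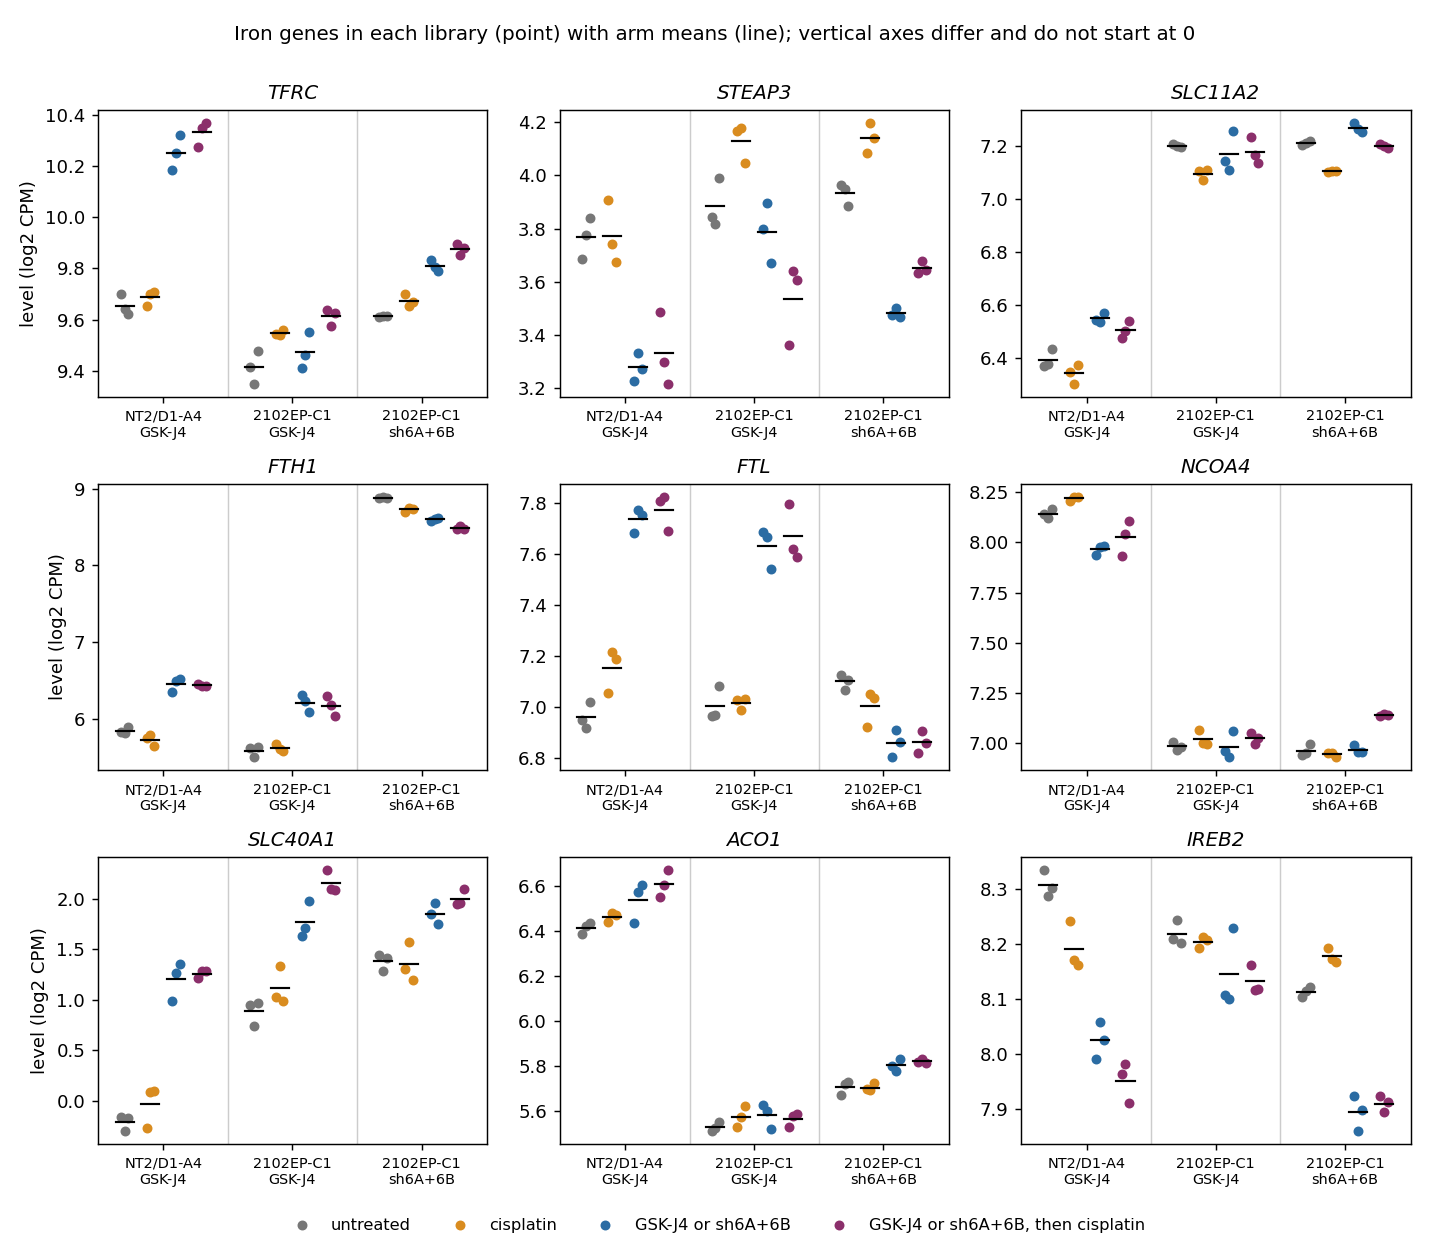
Level of each member in log2 CPM (vertical axis, with its own range in each panel and not from 0) in every library of the 3 experiments. Each point is 1 library, colours mark the 4 arms and horizontal lines the arm means. The blue and purple points of FTH1 and FTL stand above the grey and orange ones in the GSK-J4 experiments and below them in the knockdown experiment, and FTH1 stands at a higher level throughout the knockdown experiment.

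Among the uptake genes, TFRC rose in NT2/D1-A4 cells only at the thresholds used. It stood at 9.70, 9.64 and 9.62 log2 CPM untreated and at 10.19, 10.25 and 10.32 with GSK-J4, without overlap, a log2 difference of 0.60 ± 0.04 (adjusted p = 4.3e-10). In 2102EP-C1 cells the values overlapped, at 9.42, 9.35 and 9.48 untreated and 9.41, 9.46 and 9.55 with GSK-J4. The difference there was 0.06 with a 95% interval from -0.01 to 0.13 (adjusted p = 0.18), and a test between the lines was not made. With the vector TFRC stood at 9.61, 9.62 and 9.61 and with sh6A+6B at 9.83, 9.80 and 9.79. These did not overlap, and the log2 difference of 0.20 ± 0.02 (adjusted p = 3.0e-10) was under the fold limit.

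STEAP3, the endosomal ferrireductase, fell in GSK-J4-treated NT2/D1-A4 cells, from 3.69, 3.77 and 3.84 log2 CPM to 3.23, 3.33 and 3.27. It fell as well with knockdown, from 3.96, 3.95 and 3.88 with the vector to 3.48, 3.50 and 3.47 with sh6A+6B. The arms did not overlap in either experiment. The log2 differences were -0.49 ± 0.08 and -0.45 ± 0.04 (adjusted p = 4.3e-05 and 7.3e-10). In 2102EP-C1 cells STEAP3 stood at 3.85, 3.82 and 3.99 untreated and at 3.80, 3.90 and 3.67 with GSK-J4, overlapping values with a log2 difference of -0.10 (95% interval -0.25 to 0.06, adjusted p = 0.34). SLC11A2, which moves iron out of the endosome, was not called in any experiment. Its log2 differences were 0.16, -0.03 and 0.06, with adjusted p of 0.0015 in NT2/D1-A4, 0.54 in 2102EP-C1 and 0.0081 with knockdown.

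Neither NCOA4, ACO1 nor IREB2 reached the fold limit with GSK-J4 or knockdown alone. IREB2, which is degraded when iron is plentiful, came nearest. It stood at 8.34, 8.29 and 8.30 log2 CPM in untreated NT2/D1-A4 cells against 7.99, 8.06 and 8.03 with GSK-J4, and at 8.10, 8.12 and 8.12 with the vector against 7.92, 7.86 and 7.90 with sh6A+6B. Both pairs of arms were apart, with log2 differences of -0.28 ± 0.03 and -0.22 ± 0.02 (adjusted p = 1.8e-06 and 2.7e-10). In GSK-J4-treated 2102EP-C1 cells the difference was -0.07 ± 0.03 (adjusted p = 0.084) and the arms overlapped. ACO1, the iron-sulfur enzyme that becomes an IRE-binding protein without its cluster, had log2 differences of 0.13, 0.05 and 0.10 (adjusted p = 0.025, 0.32 and 0.0012). NCOA4, the ferritin receptor of autophagy, had -0.18 ± 0.04 in NT2/D1-A4 cells (adjusted p = 7.5e-04), and in the 2 experiments in 2102EP-C1 cells its 95% intervals were -0.08 to 0.07 and -0.03 to 0.05.

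In cells given GSK-J4 and then cisplatin, the called members against untreated cells were FTH1 (log2 fold change 0.59 in both lines), FTL (0.81 and 0.66) and SLC40A1 (1.47 and 1.27) in NT2/D1-A4 and 2102EP-C1 cells, with TFRC (0.68) and STEAP3 (-0.43) in NT2/D1-A4 cells as well. In knockdown cells with cisplatin against vector cells without it, SLC40A1 rose (0.62) and FTH1 fell (-0.40). The counts were 5, 3 and 2 of the 9, where 25.4%, 22.6% and 16% of all genes were called. These comparisons use the same untreated libraries as those of GSK-J4 or knockdown alone. FTL with knockdown and cisplatin was at 6.82, 6.91 and 6.86 log2 CPM, below every vector library, with a difference of -0.24 ± 0.03 (adjusted p = 2.3e-07) that was under the fold limit. Without the third library of GSK-J4 and cisplatin the STEAP3 difference in NT2/D1-A4 cells was -0.38, under the limit, and without the TMM factors (trimmed mean of M values) that of FTH1 with knockdown was -0.37, also under it.

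Cisplatin by itself called none of the 9 in any experiment, by limma with 2.45%, 1.07% and 3% of all genes called in NT2/D1-A4 cells, 2102EP-C1 cells and vector 2102EP-C1 cells. With no fold limit 2, 1 and 6 members had an adjusted p under 0.05, beside 9.43%, 4.08% and 36.1% of all genes. Log2 differences ran from -0.12 to 0.19, from -0.10 to 0.25 and from -0.15 to 0.21. The largest in 2102EP-C1 cells was that of STEAP3 in both experiments. It stood at 4.17, 4.18 and 4.05 log2 CPM with cisplatin, above all 3 untreated libraries (0.25 ± 0.08, adjusted p = 0.066). In vector cells its mean with cisplatin was 4.14 ± 0.06 (SD, n = 3) and the lowest library 4.08, again above every library without it (0.21 ± 0.04, adjusted p = 1.4e-04). FTH1 in vector cells stood at 8.70, 8.75 and 8.74 with cisplatin, below the 3 libraries without it (-0.15 ± 0.02, adjusted p = 1.9e-07).

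After GSK-J4 or in knockdown cells, cisplatin likewise called none of the 9, where 0.377%, 2.22% and 3.52% of all genes were called. With no fold limit 0, 2 and 5 members had an adjusted p under 0.05, beside 1.26%, 15.7% and 44.8% of all genes. SLC40A1 was nearest in 2102EP-C1 cells. It stood at 2.28, 2.10 and 2.09 log2 CPM after GSK-J4 and cisplatin, above all 3 libraries of GSK-J4 alone (0.38 ± 0.13, adjusted p = 0.051). It was called when the third GSK-J4 library (0.48, adjusted p = 0.013) or the second cisplatin library (0.38, adjusted p = 0.049) was left out.

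The interaction asks whether the cisplatin difference depended on GSK-J4 or knockdown. It was called for 0, 1 and 0 of the 9 members, where 0.0426%, 0.857% and 3.77% of all genes were called. The 1 member was STEAP3 in 2102EP-C1 cells with GSK-J4. There cisplatin went with a higher level without GSK-J4 (given above), and with a lower one after it, 3.36, 3.64 and 3.61 log2 CPM against 3.80, 3.90 and 3.67. The interaction was -0.50 ± 0.11 (adjusted p = 0.013), and its adjusted p was 0.20 in a fit without the intensity trend. In the knockdown experiment STEAP3 was higher with cisplatin in both vector and knockdown cells, and its interaction was -0.04 ± 0.05 (adjusted p = 0.63). NCOA4 had an interaction of 0.19 ± 0.03 with knockdown (adjusted p = 4.9e-06), under the fold limit. It stood at 7.14, 7.15 and 7.14 log2 CPM in knockdown cells with cisplatin, above each of the other 9 libraries of that experiment.

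**Figure D3:**
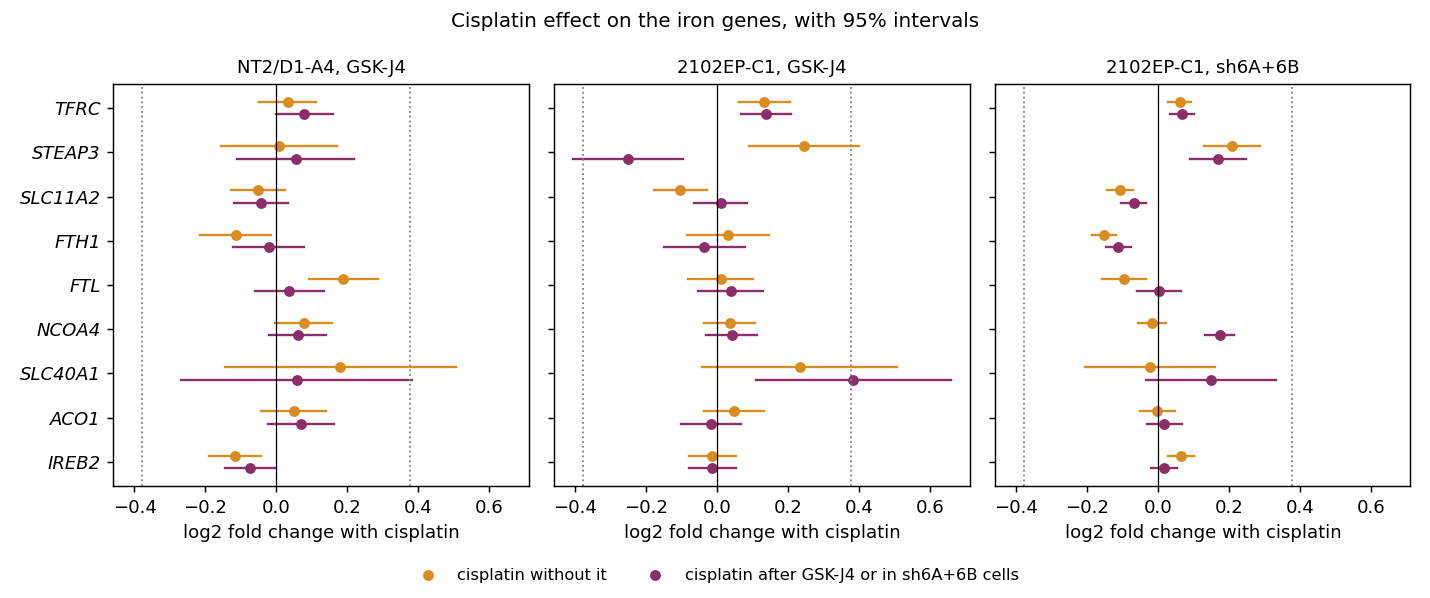
Log2 fold change of each member with cisplatin (horizontal axis) and its 95% interval, without GSK-J4 or hairpins (orange) and with them (purple), in the 3 experiments. Dotted lines mark the 1.3-fold limit. All points lie between -0.25 and 0.38, and STEAP3 in the GSK-J4 experiment of 2102EP-C1 is the member whose points stand on opposite sides of 0 with intervals that do not reach it.

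Levels between genes were compared per length, as CPM per kb of the canonical transcript in untreated libraries. In NT2/D1-A4 cells the order by median was TFRC (159.4), FTL (141.8), NCOA4 (81.5), IREB2 (49.9), FTH1 (47.0), SLC11A2 (20.1), ACO1 (11.5), STEAP3 (3.21) and SLC40A1 (0.267). No neighbours in that order overlapped over the 3 libraries. In 2102EP-C1 cells FTL (143.9) and TFRC (136.4) led, IREB2 (46.8), FTH1 (40.9), NCOA4 (36.6) and SLC11A2 (35.6) followed, and ACO1 (6.17), STEAP3 (3.37) and SLC40A1 (0.578) were lowest. In vector cells FTH1 led at 391.2, and FTL (158.2) and TFRC (156.2) overlapped, as did SLC11A2 (35.9) and NCOA4 (35.8). NCOA4 was thus higher per length in NT2/D1-A4 than in either set of 2102EP-C1 libraries, and SLC40A1 was lower. The tables were normalized separately, and these levels were not tested between them.

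FTH1 was the member whose level did not carry over between the experiments in 2102EP-C1 cells. Its mean was 5.58 log2 CPM in untreated cells of the GSK-J4 experiment and 8.88 in untreated vector cells, 9.85-fold higher in the latter. The other 8 members differed by -0.10 to 0.50 on the log2 scale, with FTL at 0.09. Among 9281 genes over a mean of 3 log2 CPM in both, the median absolute difference was 0.11 and 60 (0.646%) differed by more than 1. FTH1 and the unnamed locus LOC124900652, which was named after its values were seen, were the 2 genes with the largest differences. Vector, library depth and experiment differ together between these controls, and cannot be told apart. How reads on either strand or with several matches were counted is not given for either experiment in the sources used here, and whether counting or annotation differed between them was not tested. A fold between the 2 tables may then not compare the same reads.

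**Figure D4:**
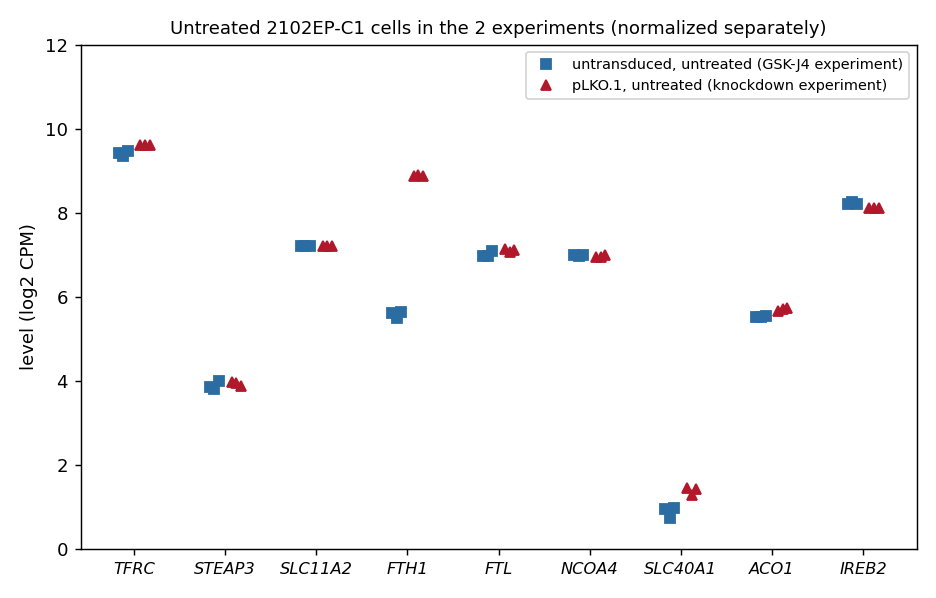
Level of each member in log2 CPM (vertical axis) in the 3 untreated libraries of 2102EP-C1 cells in the GSK-J4 experiment (squares) and the 3 untreated pLKO.1 libraries of the knockdown experiment (triangles). FTH1 is at 5.58 in the former and 8.88 in the latter on average, and the other 8 members lie within 0.50 of each other.

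For each member the 2 genes most like it across libraries were found by the mean over the 3 experiments of Pearson's r over 12 libraries, among 8731 genes. The points share libraries, and the values are descriptions. FTH1 was most like the amino acid transporter gene SLC1A4 (0.975) and KIF1A (0.971). FTL was most like SQSTM1 (0.962), which encodes the autophagy receptor p62, and CERK (0.954). SLC40A1 was most like CCN2 and RBBP8 (0.954 each), TFRC like CADM1 (0.952) and PDE4D (0.935), and STEAP3 like CMKLR1 (0.960) and CHST2 (0.953). IREB2 was most like FAM168B (0.935) and CDV3 (0.929). The closest genes were less alike for NCOA4 (SUV39H2, 0.859, and ECD, 0.839), SLC11A2 (YBX1, 0.848, and KLHL12, 0.839) and ACO1 (ANO10, 0.781, and GBE1, 0.774).

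Other genes of iron handling were counted by lists, for GSK-J4 or knockdown alone. Among other transport genes 3 of 11 measured were called in NT2/D1-A4 cells, 5 of 16 in 2102EP-C1 cells and 4 of 15 with knockdown. These counts were 27.3%, 31.2% and 26.7% of the list, beside 20.3%, 10.9% and 12.1% of all genes. SCARA5, a ferritin receptor, fell in all 3 experiments (log2 fold change -1.19, -0.52 and -0.48). TF, the gene of transferrin itself, fell in both lines with GSK-J4 (-0.47 and -0.57), and its difference with knockdown was -0.29 (adjusted p = 0.011). Both genes were low in NT2/D1-A4 cells, SCARA5 at 1.16 log2 CPM untreated and -0.03 with GSK-J4, and TF at 1.31 and 0.84. The ferroxidase gene HEPH rose in NT2/D1-A4 cells (0.39), the ferrireductase CYBRD1 rose in both experiments in 2102EP-C1 cells (by 0.49 under GSK-J4 and by 0.39 with the hairpins), and STEAP2 (0.48) and HEPHL1 (1.38) rose there with GSK-J4. With knockdown the importer gene SLC39A8 rose (0.67) and BMP6, a regulator of systemic iron, fell (-0.64). None of 5 genes of iron sensing and chaperones was called in any experiment.

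**Figure D5:**
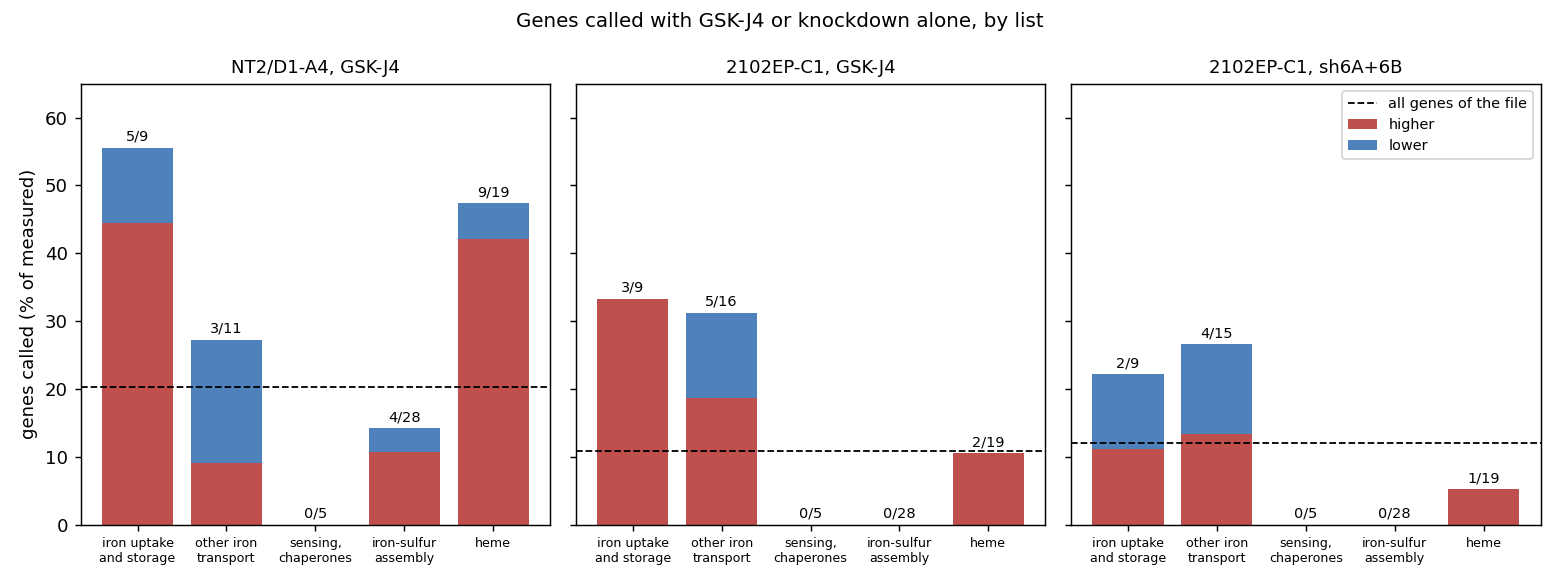
Share of measured genes called (vertical axis, percent) in each list with GSK-J4 or knockdown alone, in the 3 experiments, split into higher and lower. Labels give called over measured, and the dashed line is the share of all genes called, 20.3%, 10.9% and 12.1%. The members stand above the line in all 3 panels, and sensing and chaperone genes are at 0.

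Of 19 genes of heme handling 9 were called in NT2/D1-A4 cells (8 higher and 1 lower), 2 in GSK-J4-treated 2102EP-C1 cells and 1 with knockdown. These counts were 47.4%, 10.5% and 5.26% of the list, beside 20.3%, 10.9% and 12.1% of all genes. Only the first was above the share of all genes. Differences between these counts were not tested. SLC48A1, a heme transporter of the lysosome, rose in all 3 (1.45, 0.73 and 0.38). FECH, which inserts iron into heme in the last step of its synthesis, rose in both lines with GSK-J4 (0.58 and 0.43), and ABCB6 (0.55) rose and the transporter gene FLVCR2 (-0.43) fell in NT2/D1-A4 cells. Iron-sulfur assembly genes were called in NT2/D1-A4 cells only, 4 of 28 against 0 and 0, and this share of 14.3% was under that of all genes. There FDXR, the ferredoxin reductase (1.44), the scaffold gene ISCU (0.40) and CIAO2B (0.39) rose and NFS1, the cysteine desulfurase (-0.50), fell. Among 4 other genes known for an IRE, EPAS1 rose in NT2/D1-A4 cells (0.50), and none was called in 2102EP-C1 cells.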

How the data were processed

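The authors trimmed reads of stranded mRNA libraries with Trimmomatic, mapped them to GRCh38.p14 with STAR, and used featureCounts for gene counts, a filter of 0.5 CPM in 2 or more samples and TMM normalization. Tool versions and the strand setting are not given in the sources used here. The deposited tables hold log2 CPM, made with a prior count of 3. Reads recovered from them were within 0.05 of whole numbers for 100% of values under 50 reads and gave the depth of each library.

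For each experiment all 12 libraries entered 1 fit with limma 3.58.1 in R 4.3.3 (group means, intensity trend, no block), and p-values were adjusted by Benjamini-Hochberg over all genes of the file. The tests were two-sided. Calls needed an adjusted p below 0.05 and a change of more than 1.3-fold, as the study set them. "Rose" and "fell" mean called. The fit was tried on simulated data with planted changes larger than the fold limit and the same spread for every gene. That run therefore does not test calls near the fold limit or at the spread of these libraries. Same-numbered replicates did not deviate together in every pair (correlations from -0.30 to 0.50), so the numbers were not used as pairs.

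The 9 members and the other gene lists were chosen with earlier results of these data known. From each further list up to 3 called genes per direction and experiment with the largest change were named. Gene positions and UTRs came from GENCODE 44 on GRCh38. Alternatives were the libraries compared alone, a replicate block, a low-value filter, no trend, voom, another prior count, no TMM, median centring, other thresholds and leaving out each library. Squared differences between replicate libraries were 1.46 to 9.86 times those of counting noise, so none was a copy. The widest pairs were in the GSK-J4 arm of 2102EP-C1 and the combined arm of NT2/D1-A4 cells. The result of 1 marker list is not reported here.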

Additional observations from a re-analysis of the deposited data

Results flagged for a closer look

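The difference in the cisplatin effect with and without GSK-J4 passed the test for STEAP3 in 2102EP-C1 cells. The interaction was -0.50 on the log2 scale, with a level 0.25 higher with cisplatin in cells without GSK-J4 and a difference of -0.25 after GSK-J4, in 3 of 3 libraries against every library of the arm compared. It was not past the thresholds in a fit without the intensity trend (adjusted p = 0.20).

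The corresponding difference for NCOA4 between knockdown and vector cells had a small adjusted p (4.9e-06, limma) at an interaction of 0.19 on the log2 scale, under the 1.3-fold limit. The 3 knockdown libraries with cisplatin were above the other 9.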

How the results depend on the processing

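Of 21 called differences of single members, 18 kept their direction and their call under all 8 other settings of the fit that could be applied and with each of the 12 libraries of an experiment left out. The exceptions were STEAP3 in NT2/D1-A4 cells with both agents (-0.38 without the third library of GSK-J4 and cisplatin), FTH1 with knockdown and cisplatin (-0.37 without TMM factors, which left 1 member called in that comparison) and the STEAP3 interaction in 2102EP-C1 cells (0 members called without the intensity trend, and 0 at a 1.2-fold change with an adjusted p under 0.001). SLC40A1 could not be fitted in NT2/D1-A4 and 2102EP-C1 cells with GSK-J4 under the filter that asks for a log2 value over 1 in every library. Differences against untreated cells that became calls with both agents were IREB2 in NT2/D1-A4 cells under median centring (-0.45) and STEAP3 in 2102EP-C1 cells, under median centring (-0.39) and without untreated library 2 (-0.38) or library 2 or 3 of both agents (-0.40 and -0.38).

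With no fold limit the members called in NT2/D1-A4 cells were 2 with cisplatin, 9 with GSK-J4 and 9 with both. Of all genes 9.43%, 48.3% and 54% were called there. In 2102EP-C1 cells they were 1 with cisplatin, 3 with GSK-J4, 6 with both and 2 with cisplatin after GSK-J4. The shares of all genes there were 4.08%, 35.2%, 53% and 15.7%. In the knockdown experiment they were 6 with cisplatin, 8 with knockdown and 8 with both, beside 36.1%, 52.8% and 62.6%. There 5 members were called with cisplatin in knockdown cells (44.8% of all genes) and 1 in the interaction (35.1%). At a 1.2-fold change with an adjusted p under 0.001, 4 members were called with knockdown and cisplatin. The share of all genes was not counted at those limits. Leaving out single libraries gave 0 to 1 members for cisplatin after GSK-J4 in 2102EP-C1 cells. NCOA4 had differences near 0 in 2102EP-C1 cells that turned sign, to 0.012 with GSK-J4 without TMM factors and to -0.000618 with knockdown under median centring, and ran from -0.0402 to 0.0244 and from -0.00634 to 0.0221 with single libraries left out. The replicate block changed no call: 5, 3 and 2 members were called with GSK-J4 or knockdown alone in the 3 experiments. The read count limits SLC40A1 most, at 24 to 31 reads per untreated NT2/D1-A4 library.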

Other observations

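FDXR, the mitochondrial ferredoxin reductase of iron-sulfur and steroid synthesis and a known p53 target, was singled out after its values were seen, since it was the 1 gene of the iron lists that rose with cisplatin alone in all 3 experiments. Its log2 fold changes were 0.73 ± 0.06 in NT2/D1-A4, 0.68 ± 0.06 in 2102EP-C1 and 0.70 ± 0.03 in vector cells (limma adjusted p = 2.2e-07, 3.6e-08 and 1.4e-13). With GSK-J4 alone it rose in NT2/D1-A4 cells (1.44), and its difference in 2102EP-C1 cells was 0.36 (adjusted p = 2.6e-05), just under the fold limit. In NT2/D1-A4 cells the interaction with cisplatin was -0.45 (adjusted p = 0.045). With knockdown alone its difference was -0.14 (adjusted p = 6.7e-04), and cisplatin in knockdown cells raised it by 0.90 on the log2 scale. None of the 9 uptake and storage genes was called with cisplatin alone.

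HERC2, counted with the iron-sensing genes because its product is an E3 ligase that acts on NCOA4, fell with cisplatin in knockdown cells (-0.41 ± 0.02, adjusted p = 1.5e-13), with an interaction of -0.71 ± 0.03 (adjusted p = 1.8e-14). It too was singled out after its values were seen. NCOA4 in the same libraries had the difference of 0.17 ± 0.02. Whether these differences are connected was not tested.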
